A study of Mus musculus with 24 samples.

Results

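The regulators of multiciliated cell formation were followed across mouse neural stem cells, stem cell-derived astrocytes and primary astrocytes. The 10 genes were listed by symbol, by a rule that uses no measured value, although earlier results of these data were known, and were Gmnc, Mcidas, Myb, Trp73, Foxj1, Rfx2, Rfx3, Ccno, Deup1 and Cdc20b. All 10 were found by Ensembl identifier among the 49671 counted genes, and all 10 passed the filter on low counts that left 19691 genes for testing.

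Multiciliated cells, such as the ependymal cells that line the brain ventricles, carry many motile cilia, each built on its own basal body. In their formation the geminin-related nuclear proteins GEMC1 and multicilin act with E2F4 or E2F5 to switch on a transcription factor cascade that includes p73, MYB, FOXJ1 and RFX factors. The factors CCNO, DEUP1 and CDC20B take part in the amplification of centrioles, whereas FOXJ1 and the RFX factors drive the genes of the cilium itself. A neural stem cell or a cultured astrocyte usually carries a single primary cilium, for which RFX factors are also needed.

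The study compared how origin, culture and age alter astrocytes, and 4 RNA-seq libraries were made for each of 6 groups. NSC are neural stem cells derived from 1 line of C57BL/6N mouse embryonic stem cells (GSC-5003), grown with 20 ng/ml EGF and FGF and taken at passages 50 to 60. AGES are astrocytes generated from these cells with 20 ng/ml BMP4 over 3 to 5 days, so both groups share that line. The primary astrocytes came from wild-type C57BL/6J mice and were isolated with magnetic beads against ACSA-2, a surface antigen encoded by Atp1b2. They came from mice 4 to 8 days old (neoAC) or 100 to 140 days old (AdAC), and were either frozen at once (neoAC direct, AdAC direct) or kept in vitro for 7 to 10 days (neoAC CellC, AdAC CellC). Neonatal cerebral tissue, without meninges, was dissociated with the neural tissue kit and had no myelin removal. Adult brain was dissociated with the adult brain kit, with removal of debris and red blood cells. Age and tissue preparation therefore cannot be told apart. Nor can culture and the time elapsed since isolation, because the direct cells were frozen at once. For neonatal cells that time is similar to their age at isolation, whereas for adult cells it is a small part of it. Each primary isolation pooled 2 mice, and none of the 6 groups carried a gene deletion or a transgene. These are bulk samples, so fewer cells of a type and less RNA per cell cannot be told apart.

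Library totals lay between 27904126 and 37997368 counts. Levels are CPM, counts scaled to the library total with edgeR's TMM factors, given for each library or as mean ± SD of the 4 libraries of a group. A group whose libraries all held 3 counts or fewer of a gene, that is at most 0.0846 to 0.0997 CPM, was taken as at the floor, and this limit covers counting error alone. Such groups get no fitted fold change. Where a fold against them is given, it is the ratio of the summed counts with its 95% counting interval. The astrocyte label was examined with 10 markers, among them Atp1b2, which encodes the antigen used to select the primary cells. None of these markers was at 0 in any group, NSC included, so presence alone is no check of the label. Their summed level was 21210 to 24210 CPM in neoAC direct, 16350 to 17170 CPM in AdAC direct, 7407 to 8608 CPM in neoAC CellC and 55110 to 60030 CPM in AGES, where most of it was Gfap. AdAC CellC held 918.9 to 1412 CPM, less than the 1943 to 2471 CPM of NSC, so the cultured adult cells were low in the summed markers. Against AdAC direct, 9 of the 10 were lower, where 39.2% of all tested genes were lower. Gfap was not called (log2 fold change 0.18, SE 0.14, edgeR adjusted p = 0.239).

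Ccno, Mcidas and Cdc20b lie side by side on chromosome 13, and their promoters are shown because all 3 were far higher in the neonatal than in the other libraries. The sequences run from 250 bases before to 50 bases after each annotated start, 5′ to 3′, and were taken from RefSeq on GRCm38.p6. Capitals mark the letters GTTGCC, the half-site bound by RFX factors, on either strand.
Ccno, chr13:112987552-112987851, plus strand: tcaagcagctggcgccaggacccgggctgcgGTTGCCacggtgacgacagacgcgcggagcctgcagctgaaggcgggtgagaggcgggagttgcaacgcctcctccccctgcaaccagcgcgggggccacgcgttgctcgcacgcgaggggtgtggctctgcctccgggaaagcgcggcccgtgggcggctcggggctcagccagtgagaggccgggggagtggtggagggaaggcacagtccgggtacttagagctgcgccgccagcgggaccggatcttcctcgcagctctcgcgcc
Mcidas, chr13:112993618-112993917, plus strand: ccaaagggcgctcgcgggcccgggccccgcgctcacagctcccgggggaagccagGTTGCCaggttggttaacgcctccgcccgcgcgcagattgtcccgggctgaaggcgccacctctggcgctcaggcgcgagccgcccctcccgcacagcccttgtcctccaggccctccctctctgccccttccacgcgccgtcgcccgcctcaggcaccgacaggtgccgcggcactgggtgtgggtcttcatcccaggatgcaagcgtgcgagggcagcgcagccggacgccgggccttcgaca
Cdc20b, chr13:113035129-113035428, plus strand: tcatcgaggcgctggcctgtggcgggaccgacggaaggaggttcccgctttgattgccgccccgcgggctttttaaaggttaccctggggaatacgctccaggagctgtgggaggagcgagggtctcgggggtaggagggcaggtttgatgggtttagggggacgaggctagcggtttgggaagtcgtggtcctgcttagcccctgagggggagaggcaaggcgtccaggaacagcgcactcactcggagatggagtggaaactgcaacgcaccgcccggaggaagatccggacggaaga

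The half-site stood 219 bases before the start of Ccno and 195 bases before that of Mcidas. The Cdc20b window did not hold these letters. It lies wholly downstream of the gene's Gencode start at 113035111, so bases before that start were not searched. Of the 10 genes, 9 had a promoter in the table, with 12 windows between them, and the missing one was Foxj1. GTTGCC was found in 6 of the 12 windows, which belong to Ccno, Mcidas, Deup1, Trp73, Rfx2 and Rfx3, and in 12.5% of all 32851 windows of this length. The letters GCGGGAA, a core bound by E2F factors, were found on either strand in 3 of the 12 windows, those of Trp73, Deup1 and Cdc20b, and in 4.6% of all windows, with no overlap between the letters of both motifs. These matches describe the letters of the windows and are not measured sites of binding.

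Cdc20b also hosts the miR-449 cluster in an intron, and miR-449 and miR-34, known for a role in multiciliated cells, belong to one family. Their mature sequences are shown to make that shared identity visible, with the seed, bases 2 to 8, in capitals.
mmu-miR-449a-5p: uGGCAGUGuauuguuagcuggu
mmu-miR-449c-5p: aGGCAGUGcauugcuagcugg
mmu-miR-34a-5p: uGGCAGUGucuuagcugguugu
mmu-miR-34b-5p: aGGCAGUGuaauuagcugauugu

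All 4 share the seed GGCAGUG. The libraries were made from polyadenylated RNA and do not measure mature miRNAs. On the hairpins themselves, Mir449a had 4 to 9 counts and Mir449c 2 to 12 counts in the neoAC CellC libraries, at most 2 counts in neoAC direct and 0 counts in all 16 other libraries.

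The 10 genes fell into 3 patterns over the 6 groups. Mcidas, Ccno, Deup1 and Cdc20b were highest in neoAC CellC and next in neoAC direct. Gmnc, Myb, Foxj1 and Rfx2 were highest in neoAC CellC and next in AdAC direct, and Trp73 was high in both of these groups. Rfx3 was expressed in every group, and its group means differed least. Compared per exon length, Foxj1 had the highest level of the 10 in each group, from 7.00 RPKM in NSC to 473 RPKM in neoAC CellC.

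**Figure D1:**
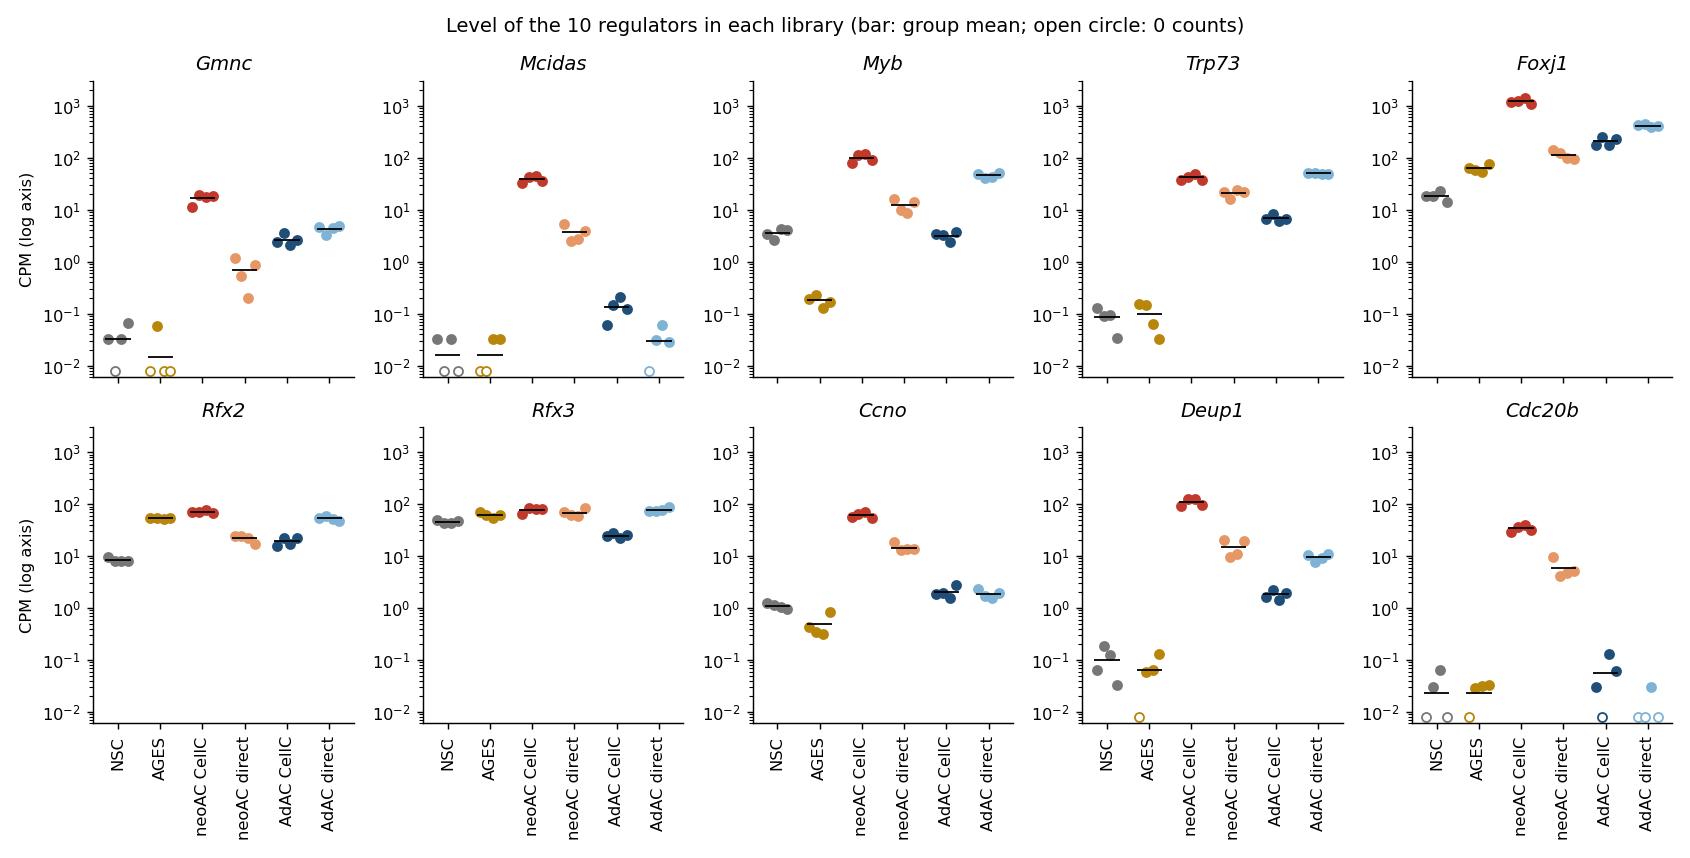
Level of each of the 10 genes in the 24 libraries, in CPM on a log axis, with the 4 libraries of a group as points and the group mean as a bar. Open circles at the foot of a panel are libraries with 0 counts. Mcidas and Cdc20b stand over 2 CPM in all 8 neonatal libraries and below 0.3 CPM in all others.

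Gmnc (ENSMUSG00000068428, chromosome 16, 26913553 to 26991652, minus strand) encodes GEMC1, which stands at the head of the cascade. It was at 11.3, 19.4, 17.4 and 18.4 CPM in the 4 neoAC CellC libraries, against 1.17, 0.526, 0.204 and 0.865 CPM in neoAC direct. In the adult cells it was at 2.36, 3.61, 2.10 and 2.58 CPM in AdAC CellC and at 4.68, 3.31, 4.52 and 4.77 CPM in AdAC direct. All neoAC CellC libraries thus lay over every other library, the adult groups overlapped, and neoAC direct was the lowest of the primary groups. NSC and AGES were at the floor. In the order neoAC CellC, AdAC direct, AdAC CellC, neoAC direct, NSC, each step down to NSC passed the test, and NSC and AGES did not differ beyond their spread (edgeR adjusted p = 0.604). The step from AdAC direct to AdAC CellC (edgeR adjusted p = 0.0235) was lost in some fits that left out 1 library.

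Mcidas (ENSMUSG00000074651, chromosome 13, 112993845 to 113000394, plus strand) encodes multicilin, the co-activator that follows GEMC1. Its 4 neoAC CellC libraries held 32.8, 42.3, 44.7 and 36.4 CPM, and its 4 neoAC direct libraries 5.43, 2.52, 2.68 and 3.96 CPM. AdAC CellC held 0.061, 0.146, 0.212 and 0.124 CPM. The neonatal groups did not overlap with each other or with any other group. AdAC direct, AGES and NSC were all at the floor, and neighbours among these 3 did not differ by the test (edgeR adjusted p of 0.532 and 1.00).

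Myb (ENSMUSG00000019982, chromosome 10, 21124935 to 21160984, minus strand) encodes a transcription factor known from dividing progenitors that also acts early in multiciliated cells. It was at 79.7, 113, 119 and 91.3 CPM in neoAC CellC and at 49.1, 40.5, 43.4 and 50.7 CPM in AdAC direct. In neoAC direct it was at 16.0, 9.80, 8.77 and 14.1 CPM. These groups did not overlap. NSC at 3.61 ± 0.78 CPM and AdAC CellC at 3.16 ± 0.53 CPM did not differ beyond their spread (edgeR adjusted p = 0.370), and AGES came last, at 0.128 to 0.232 CPM. Exons of Myb share 559 bases with Gm26577 on the opposite strand, so its level is uncertain where reads were counted without strand.

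Trp73 (ENSMUSG00000029026, chromosome 4, 154056253 to 154140208, minus strand) encodes p73, a relative of p53 needed for multiciliated cells. It was the only one of the 10 with its highest mean in AdAC direct, at 51.3, 51.2, 49.7 and 48.7 CPM. In neoAC CellC it was at 37.9, 43.6, 49.3 and 37.8 CPM, and these groups overlapped and did not differ by the test (0.25 higher in AdAC direct on the log2 scale, SE 0.12, edgeR adjusted p = 0.0672). The difference was called when only these groups were fitted (edgeR adjusted p = 0.0220) and without neoAC CellC replicate 3 (edgeR adjusted p = 0.0404). In neoAC direct it was at 15.9 to 23.6 CPM and in AdAC CellC at 5.95 to 8.31 CPM, with no overlap. AGES and NSC held 1 to 5 counts per library, at 0.033 to 0.156 CPM. Trp73 shares 280 exon bases with Trp73os on the opposite strand.

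Foxj1 (ENSMUSG00000034227, chromosome 11, 116330704 to 116335399, minus strand) encodes the forkhead factor that drives motile cilium genes. It was at 1206, 1254, 1398 and 1108 CPM in neoAC CellC and at 427, 438, 396 and 402 CPM in AdAC direct. The AdAC CellC libraries held 179, 248, 177 and 232 CPM and the neoAC direct libraries 144, 124, 97.6 and 94.2 CPM. In AGES it was at 64.7, 58.1, 52.1 and 76.8 CPM and in NSC at 18.2, 18.3, 22.9 and 14.0 CPM. Foxj1 was the only one of the 10 for which all 6 groups were separate, with no overlap between neighbours and each step past the test.

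Rfx2 (ENSMUSG00000024206, chromosome 17, 56775897 to 56831013, minus strand) encodes an RFX factor of ciliated cells. It was at 69.4, 70.0, 78.5 and 67.4 CPM in neoAC CellC. AdAC direct, at 47.5 to 59.3 CPM, and AGES, at 50.7 to 54.6 CPM, overlapped (edgeR adjusted p = 0.889). The same held one step lower, for neoAC direct at 17.2 to 24.4 CPM and AdAC CellC at 15.6 to 22.2 CPM (edgeR adjusted p = 0.115), but there the higher level of neoAC direct was called under 6 alternatives. These were DESeq2 size factors, no filter on low counts, the DESeq2 Wald test, and leaving out neoAC direct replicate 4, AdAC CellC replicate 2 or AdAC CellC replicate 4, with adjusted p from 0.0114 to 0.0494. NSC was lowest, at 9.71, 8.08, 8.15 and 8.06 CPM, with replicate 1 apart from the other three.

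Rfx3 (ENSMUSG00000040929, chromosome 19, 27761721 to 28011166, minus strand) encodes an RFX factor of both primary and motile cilia. It was at 65.0, 85.4, 79.4 and 81.6 CPM in neoAC CellC, at 75.0, 72.4, 77.0 and 86.3 CPM in AdAC direct, at 58.7 to 83.6 CPM in neoAC direct and at 54.5 to 71.6 CPM in AGES. Neighbours among these 4 groups overlapped and did not differ by the test (edgeR adjusted p from 0.137 to 0.984). AdAC direct against neoAC direct was called without neoAC direct replicate 4 (edgeR adjusted p = 0.0155), and neoAC direct against AGES under a filter of 10 counts in each library (edgeR adjusted p = 0.0489). NSC at 44.0 to 49.1 CPM and AdAC CellC at 22.0 to 27.4 CPM lay below them and did not overlap.

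Ccno (ENSMUSG00000042417, chromosome 13, 112987802 to 112990777, plus strand) encodes the atypical cyclin O, required for making many centrioles. It was at 55.9, 65.9, 71.9 and 55.0 CPM in neoAC CellC and at 18.4, 12.8, 13.5 and 13.6 CPM in neoAC direct, where replicate 1 stood over the others. AdAC CellC at 1.57 to 2.76 CPM and AdAC direct at 1.58 to 2.31 CPM overlapped and did not differ (edgeR adjusted p = 0.646). NSC was at 0.970 to 1.27 CPM and AGES at 0.429, 0.348, 0.320 and 0.856 CPM.

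Deup1 (ENSMUSG00000039977, chromosome 9, 15559864 to 15627933, minus strand) encodes a core protein of the deuterosome, the organelle on which new centrioles form. It was at 90.6, 126, 125 and 97.9 CPM in neoAC CellC and at 9.66 to 20.8 CPM in neoAC direct, where replicate 1 was highest. AdAC direct held 10.5, 7.72, 9.09 and 10.9 CPM, overlapping with neoAC direct, and AdAC CellC 1.46 to 2.22 CPM. NSC and AGES held at most 0.182 CPM and did not differ (edgeR adjusted p = 0.562).

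Cdc20b (ENSMUSG00000078926, chromosome 13, 113035111 to 113091195, plus strand) encodes a relative of the cell cycle protein CDC20 that acts on deuterosomes. It was at 28.8, 36.6, 38.9 and 31.6 CPM in neoAC CellC and at 9.69, 4.21, 4.76 and 5.26 CPM in neoAC direct, again with replicate 1 highest. The other 4 groups held at most 0.133 CPM, and AdAC direct held 1 count of the gene in its 4 libraries together. Neighbours among these 4 groups did not differ (edgeR adjusted p from 0.303 to 1.00). Cdc20b shares 197 exon bases with 4930563N14Rik, a gene on the opposite strand that the counted set does not include.

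Within groups, single libraries held the highest or lowest level of several of the genes at once. Replicate 3 of neoAC CellC held the highest level of 7 of the 10 genes in that group, and replicate 1 of neoAC direct that of 8 of the 10. Replicate 3 of AdAC CellC held the lowest level of 7 of the 10. Replicate 4 of NSC and replicate 3 of AGES held the lowest level of 5 of the 7 genes over the floor there. The summed level of the motile cilium genes described below was also highest in neoAC CellC replicate 3 (3150 CPM) and neoAC direct replicate 1 (592 CPM). It was also lowest in AdAC CellC replicate 3 (617 CPM), NSC replicate 4 (58.2 CPM) and AGES replicate 3 (44.8 CPM). For the summed ependymal markers, also described below, this held only for AdAC CellC replicate 3 (190 CPM). Whether genes outside these lists shifted alike in these libraries was not examined.

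Culture, which goes with the time elapsed since isolation here, was examined first in neonatal cells, as neoAC CellC against neoAC direct. Of the 10 genes, 9 were higher in culture and none was lower, where 34.4% of all tested genes were called higher, 31.3% lower and 65.7% were called in either direction. The libraries did not overlap for these 9, against 58.0% of all tested genes. The median log2 fold change was 2.68 over the 10 genes and 0.04 over all tested genes. Gmnc rose most, by a log2 fold change of 4.58 (SE 0.32, edgeR adjusted p = 3.42e-12). Foxj1 rose by 3.44 (SE 0.16, edgeR adjusted p = 1.93e-15) and Mcidas by 3.42 (SE 0.21, edgeR adjusted p = 3.98e-13). The centriole genes Deup1, Cdc20b and Ccno rose by 2.85, 2.51 and 2.10. Trp73 rose by 1.02 (SE 0.13, edgeR adjusted p = 1.15e-07), the smallest change that passed the test. Rfx3 did not pass it, with 0.18 (95% interval −0.03 to 0.38, edgeR adjusted p = 0.139), but was called with scaling by library size alone (0.40, edgeR adjusted p = 0.00263), with at least 10 counts in every library (0.28, edgeR adjusted p = 0.0199), without neoAC CellC replicate 1 (0.26, edgeR adjusted p = 0.0387) and without neoAC direct replicate 4 (0.28, edgeR adjusted p = 0.0158).

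In adult cells, AdAC CellC against AdAC direct, the direction was the opposite for most of the genes. Of the 10, 7 were lower in culture, 1 was higher and 2 were not called, where 39.2% of all tested genes were lower, 38.8% higher and 78.0% were called in either direction. The libraries did not overlap for 7 of the 10, against 76.3% of all tested genes. Myb fell by 3.87 on the log2 scale (SE 0.19, edgeR adjusted p = 1.79e-15) and Trp73 by 2.87 (SE 0.14, edgeR adjusted p = 8.03e-16). Deup1 fell by 2.38 (SE 0.24, edgeR adjusted p = 1.93e-09). Rfx3, Rfx2 and Foxj1 fell by 1.64, 1.48 and 0.99. Gmnc fell by 0.70 (SE 0.27, edgeR adjusted p = 0.0235), a call lost in 5 of the 8 fits that left out 1 library of these groups, with adjusted p up to 0.0802 without AdAC CellC replicate 3. Ccno did not pass the test (0.10, 95% interval −0.29 to 0.50). Mcidas was called higher (edgeR adjusted p = 0.0132) from 2 to 8 counts per library in AdAC CellC, with a ratio of 4.50 (counting interval 1.5 to 18.2) over AdAC direct, and this call was lost without AdAC CellC replicate 3 (edgeR adjusted p = 0.0534). Cdc20b was not called (edgeR adjusted p = 0.0732, ratio 7.58, counting interval 1.02 to 337), and was called with the DESeq2 Wald test (adjusted p = 0.0456) and without AdAC CellC replicate 2 or AdAC direct replicate 3 (edgeR adjusted p of 0.0306 and 0.0376).

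The difference between the 2 culture effects was tested as an interaction, adult minus neonatal. Both effects include the time elapsed in vitro, so the interaction cannot separate it from culture. It was lower than 0 for 8 of the 10 genes, where 33.2% of all tested genes were lower, 35.4% higher and 68.6% were called in either direction, and its median was −3.52 over the 10 genes and 0.05 over all tested genes. Myb had the largest difference, −6.91 (SE 0.26, edgeR adjusted p = 4.85e-17), followed by Gmnc with −5.28 (SE 0.42, edgeR adjusted p = 3.77e-11) and Deup1 with −5.23 (SE 0.31, edgeR adjusted p = 3.47e-13). Mcidas and Cdc20b were not called (edgeR adjusted p of 0.258 and 0.854), and for both of them AdAC direct was at the floor. Their fitted values enter the median over the 10 genes but give no size of a difference.

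**Figure D2:**
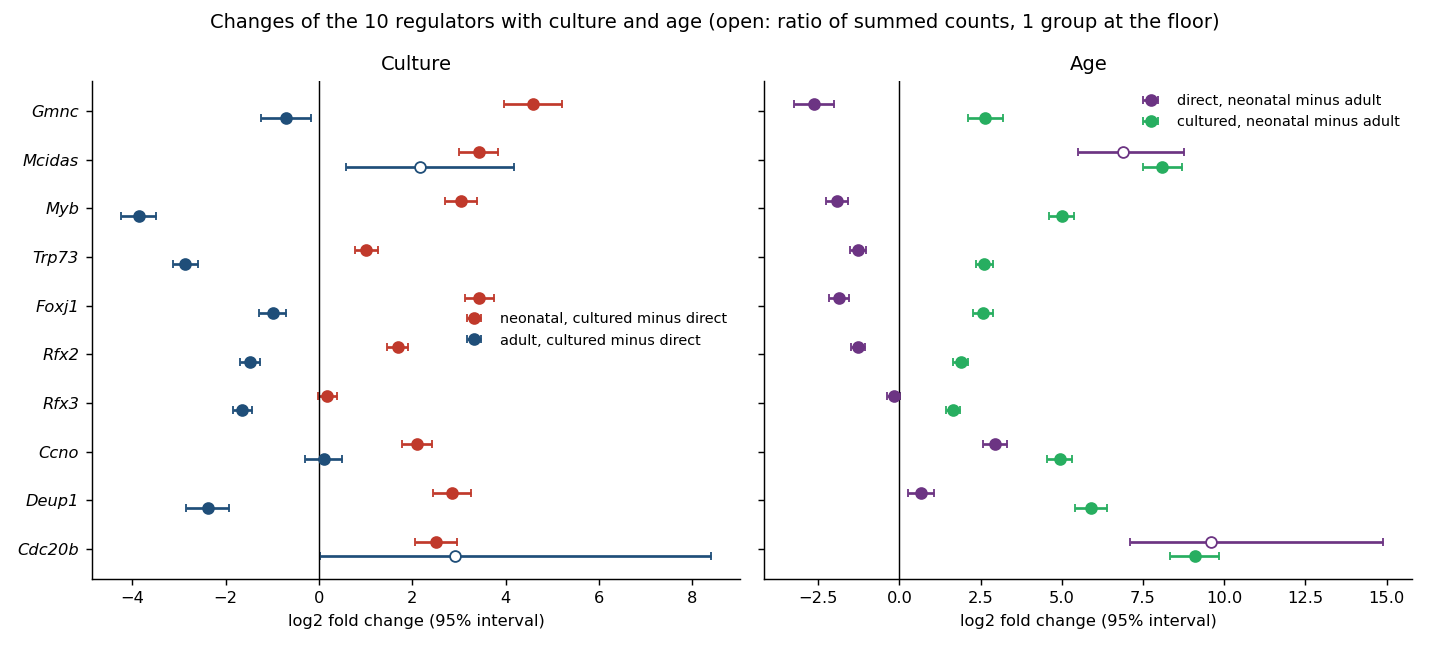
Log2 fold change of each gene with culture (left, neonatal in red and adult in blue) and with age (right, directly isolated in purple and cultured in green), with 95% intervals. Filled points are edgeR estimates. Open points are log2 ratios of summed counts with counting intervals, where AdAC direct was at the floor. On the left, Gmnc, Myb, Trp73, Foxj1, Rfx2 and Deup1 lie on opposite sides of 0 for the 2 ages, with intervals that exclude 0. The adult call of Gmnc was lost in some fits that left out 1 library.

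Age, which goes with tissue preparation here, was compared in directly isolated cells, neoAC direct against AdAC direct. The 3 centriole genes and Mcidas were higher in the neonatal cells, Gmnc and 4 of the 5 transcription factors were lower, and Rfx3 was not called, so 4 were higher and 5 lower, where 35.0% of all tested genes were higher, 36.4% lower and 71.4% called in either direction. The libraries did not overlap for 8 of the 10, against 64.9% of all tested genes. Ccno was higher by 2.94 on the log2 scale (SE 0.19, edgeR adjusted p = 3.49e-13) and Deup1 by 0.68 (SE 0.20, edgeR adjusted p = 0.00471). Mcidas was higher by a ratio of 117 (counting interval 45.4 to 431, edgeR adjusted p = 2.23e-13), and Cdc20b by a ratio of 767 (counting interval 137 to 30350, edgeR adjusted p = 7.66e-14). In the other direction, Gmnc differed by −2.64 (SE 0.32, edgeR adjusted p = 5.10e-08), Myb by −1.92 (SE 0.17, edgeR adjusted p = 2.21e-10) and Foxj1 by −1.86 (SE 0.15, edgeR adjusted p = 4.12e-11). Rfx2 and Trp73 were lower by less, with −1.28 and −1.27. Rfx3 had −0.17 (95% interval −0.38 to 0.03, edgeR adjusted p = 0.137).

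In cultured cells, neoAC CellC against AdAC CellC, all 10 genes were higher in the neonatal cells, where 28.5% of all tested genes were higher, 35.2% lower and 63.8% were called in either direction. No library overlapped for any of the 10, against 62.2% of all tested genes. Cdc20b differed by 9.10 (SE 0.38, edgeR adjusted p = 6.18e-16) and Mcidas by 8.10 (SE 0.31, edgeR adjusted p = 1.19e-16). AdAC CellC held 0 to 5 counts of Cdc20b and 2 to 8 counts of Mcidas per library, so both sizes are uncertain. Deup1, Myb and Ccno differed by 5.91, 5.0 and 4.93. Rfx3 had the smallest difference, 1.64 (SE 0.11, edgeR adjusted p = 1.76e-12). This comparison shares its libraries with those of culture above.

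Differentiation was examined as AGES against NSC. Foxj1, Rfx2 and Rfx3 were higher in AGES, Myb and Ccno were lower, and 5 genes were not called, where 31.7% of all tested genes were higher, 34.0% lower and 65.7% called in either direction. The libraries of 5 genes did not overlap, against 58.3% of all tested genes. Rfx2 rose by 2.64 (SE 0.12, edgeR adjusted p = 3.68e-16), Foxj1 by 1.78 (SE 0.15, edgeR adjusted p = 1.31e-10) and Rfx3 by 0.44 (SE 0.11, edgeR adjusted p = 5.88e-04). Myb fell by 4.29 (SE 0.32, edgeR adjusted p = 7.50e-12) and Ccno by 1.19 (SE 0.27, edgeR adjusted p = 4.22e-04). Gmnc, Mcidas and Cdc20b were at the floor in both groups, and Trp73 and Deup1 were near it. The dividing cell markers fell from 3958 to 4151 summed CPM in NSC to 21.3 to 23.7 CPM in AGES, and their part in the lower Myb and Ccno was not tested.

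AGES were also set against the cultured primary cells. AGES differ from these in substrain, culture medium, plate coating and the lack of ACSA-2 selection, as well as in origin. These differences cannot be told apart. Against neoAC CellC all 10 genes were lower, where 40.5% of all tested genes were lower, 34.1% higher and 74.6% called in either direction. The libraries did not overlap for 9 of the 10, all but Rfx3, against 69.6% of all tested genes. The differences were small for Rfx2 (−0.43, SE 0.11, edgeR adjusted p = 0.00103) and Rfx3 (−0.31, SE 0.10, edgeR adjusted p = 0.00894), while Foxj1 differed by −4.30 (SE 0.17, edgeR adjusted p = 7.79e-18) and Deup1 by −10.63 (SE 0.37, edgeR adjusted p = 2.71e-18). AGES held 0 to 4 counts of Deup1 per library, so the size of that difference is uncertain. Gmnc, Mcidas and Cdc20b were at the floor in AGES. Against AdAC CellC, Rfx2 and Rfx3 were higher in AGES by 1.46 and 1.33, 7 genes were lower and Cdc20b was not called (edgeR adjusted p = 0.322), where 31.0% of all tested genes were higher, 45.2% lower and 76.2% called in either direction. Again 9 of the 10 did not overlap, all but Cdc20b, against 73.1% of all tested genes. Mcidas was called from 2 to 8 counts per library in AdAC CellC, with a ratio of 8.45 (counting interval 2.04 to 74.85) over AGES. Foxj1 differed by −1.73 (SE 0.15, edgeR adjusted p = 1.06e-10) and Myb by −4.09 (SE 0.32, edgeR adjusted p = 1.74e-11). The median over all tested genes in this comparison was −0.23, and the direction of each called gene was the same relative to it. Both comparisons share the AGES libraries.

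Beyond the 10 genes, 17 partners and relatives were listed, of which 16 were tested and Noto was not. In adult cells 8 rose and 7 fell in culture, with a median of 0.07 against 0.00 over all tested genes, of which 38.8% rose and 39.2% fell. In neonatal cells 7 rose and 5 fell, with a median of 0.16, where 34.4% of all tested genes rose and 31.3% fell. Foxn4, a forkhead factor that acts beside multicilin, was at 28.9 ± 4.49 CPM in neoAC CellC and 3.48 ± 0.78 CPM in neoAC direct, and below 0.5 CPM in each other group mean. E2f4 and E2f5, the E2F partners of GEMC1 and multicilin, were expressed in every group, E2f4 from 30.7 CPM in AdAC direct to 74.3 CPM in NSC and E2f5 from 17.7 CPM in AdAC CellC to 46.6 CPM in neoAC direct. Gmnn, which encodes geminin, fell from 41.2 CPM in NSC to 0.91 CPM in AGES (log2 fold change −5.50, SE 0.19, edgeR adjusted p = 2.86e-18).

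Of 18 genes of general centriole assembly, 16 were higher in neonatal culture and none was lower, with a median of 0.76, where 34.4% of all tested genes were higher and 31.3% lower. In adult culture 6 were higher and 9 lower, with a median of −0.33, near the 38.8% and 39.2% of all tested genes. With age in the direct cells, 4 were higher and 10 lower in the neonatal libraries, where 35.0% of all tested genes were higher and 36.4% lower. Plk4, the kinase that starts centriole duplication, was at 13.9 CPM in neoAC direct and 2.96 CPM in AdAC direct, whereas Ccdc78, a deuterosome component, was at 1.40 CPM and 44.6 CPM. Ccp110, which caps centrioles, was at 498 CPM in AdAC direct and at most 64.0 CPM in the other group means.

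The genes of the motile cilium itself moved together. All 32 were higher in neonatal culture, with a median log2 fold change of 2.37, where 34.4% of all tested genes were higher. All 32 were lower in adult culture, with a median of −2.49, where 39.2% of all tested genes were lower. Tppp3, a tubulin-binding protein gene, was at 381 ± 36.7 CPM in neoAC CellC and 28.8 ± 6.22 CPM in neoAC direct, and at 140 ± 12.7 CPM in AdAC CellC and 382 ± 26.8 CPM in AdAC direct. Dnah6, which encodes a dynein heavy chain, was at 132 ± 15.6, 27.4 ± 8.27, 30.1 ± 4.45 and 337 ± 24.3 CPM in the same order. In directly isolated cells all 32 were lower in the neonatal cells, with a median of −2.83, where 36.4% of all tested genes were lower. This is in the direction of Foxj1, Gmnc, Myb, Trp73 and Rfx2 and not in that of Mcidas, Ccno, Deup1 and Cdc20b. Their summed level was 3553 to 3947 CPM in AdAC direct, 2513 to 3150 CPM in neoAC CellC, 617 to 841 CPM in AdAC CellC and 358 to 592 CPM in neoAC direct. In AGES, where Foxj1 and Rfx2 had risen, 11 of the 32 were higher than in NSC and 3 were lower, where 31.7% of all tested genes were higher and 34.0% lower. The share higher was thus near that of all genes, and the share lower was below it. The median log2 fold change was 0.61, against 0 over all tested genes. The summed level of 44.8 to 63.7 CPM overlapped with the 58.2 to 106 CPM of NSC. The 3 that fell were Cfap43, from 47.6 to 17.2 CPM, Hydin, from 5.77 to 0.26 CPM, and Dnaic2, from 7.05 to 4.94 CPM. Cfap43 thus made up most of the summed level in NSC, which had a mean of 75.0 CPM.

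Markers of ependymal cells, the multiciliated cells that brain tissue holds, moved in the same directions. All 12 were higher in neonatal culture, lower in adult culture and lower in neoAC direct than in AdAC direct, where 34.4% of all tested genes were higher, 39.2% lower and 36.4% lower. Their summed level was 1816 to 2047 CPM in AdAC direct, 857 to 1129 CPM in neoAC CellC, 190 to 265 CPM in AdAC CellC, 141 to 240 CPM in neoAC direct, 34.2 to 60.8 CPM in AGES and 3.39 to 5.19 CPM in NSC. Pltp, a phospholipid transfer protein gene and the highest of them, was at 628 ± 21.9 CPM in AdAC direct and 83.9 ± 8.94 CPM in AdAC CellC, and Ccdc153 fell from 359 ± 33.0 to 10.5 ± 1.01 CPM. None of the 12 was at the floor in a primary group, and several, such as Cfap126, are themselves genes of the cilium. Markers of the choroid plexus, whose epithelium is multiciliated too, were at 485 to 1425 CPM in neoAC CellC, 617 to 1272 CPM in neoAC direct, 326 to 524 CPM in AdAC CellC and 146 to 357 CPM in AdAC direct, most of it Ttr, and 4 of the 8 were higher and 1 lower in neonatal culture, against the same 34.4% and 31.3% of all tested genes. The part of either cell type in the results above was not tested.

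**Figure D3:**
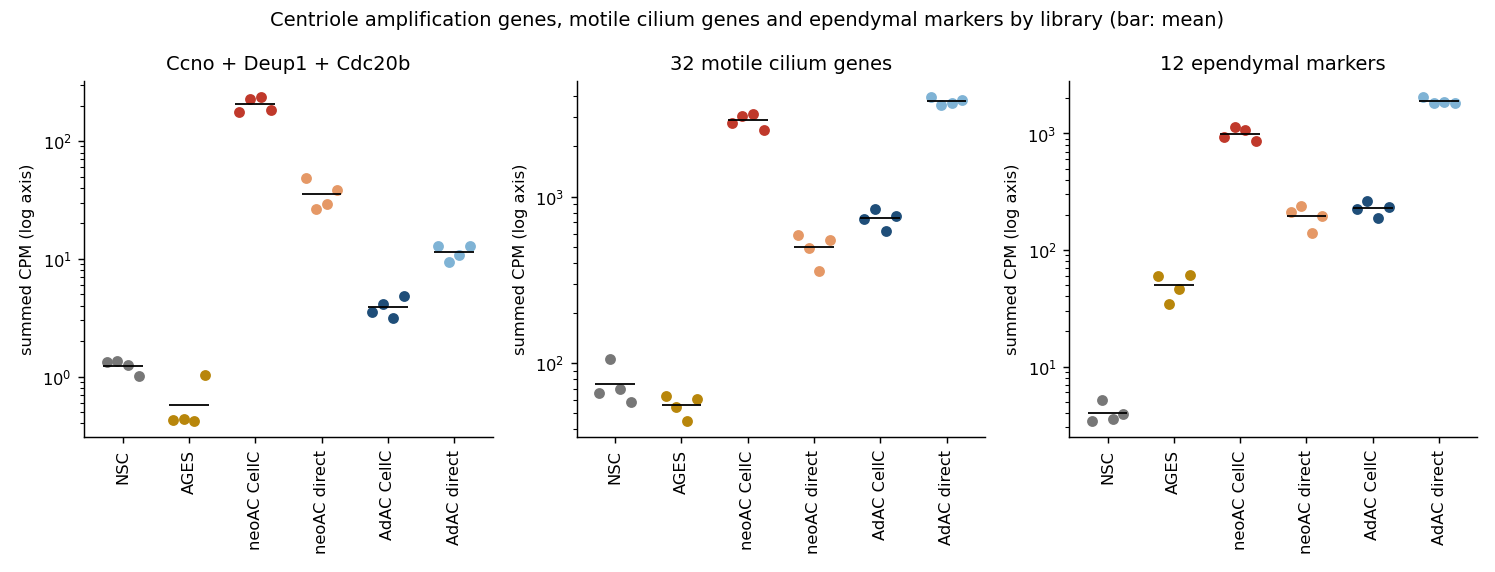
Summed CPM on a log axis of Ccno, Deup1 and Cdc20b (left), of the 32 motile cilium genes (middle) and of the 12 ependymal markers (right) in each library, with the group mean as a bar. The centriole genes are highest in neoAC CellC and the other lists in AdAC direct, where the 3 centriole genes together stand at 9.45 to 12.8 CPM, below neoAC direct at 26.7 to 48.9 CPM.

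Other cell types differed between the same groups. The 10 dividing cell markers were at 354 to 565 summed CPM in neoAC direct and at 20.4 to 23.5 CPM in AdAC direct, the direction of Mcidas, Ccno, Deup1 and Cdc20b. They were at 1012 to 1253 CPM in AdAC CellC, within the 936 to 1274 CPM of neoAC CellC, while these 4 genes were lower in AdAC CellC than in neoAC CellC. The 7 oligodendrocyte markers were at 26640 to 29520 CPM in AdAC direct, 4353 to 11130 CPM in AdAC CellC and at most 398 CPM in the neonatal groups. In adult culture 6 of the 7 were lower, where 39.2% of all tested genes were lower, and Mbp, which encodes myelin basic protein, was not called (−0.44, SE 0.30, edgeR adjusted p = 0.181). Their part was not tested.

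Levels were then set against Foxj1 in the same library, per exon length, as a number per 100 of Foxj1. This is a description with no test. Mcidas stood at 3.47 ± 0.32 in neoAC CellC and 3.52 ± 1.08 in neoAC direct, with overlapping libraries, although both genes rose in culture. In adult cells Mcidas was at 0.038 to 0.133 in AdAC CellC and at most 0.017 in AdAC direct. Cdc20b was at 3.93 ± 0.34 in neoAC CellC and 7.39 ± 2.00 in neoAC direct and at most 0.108 in the adult groups, and Ccno was at 5.13 ± 0.27, 13.2 ± 1.82, 1.00 ± 0.18 and 0.47 ± 0.07 in the cultured and direct neonatal and the cultured and direct adult cells. Deup1 was at 7.00 ± 0.82, 10.8 ± 4.44, 0.69 ± 0.04 and 1.83 ± 0.32 in the same order. For these 4 genes every neonatal library lay over every adult library.

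Gmnc, Myb and Trp73 had other orders. Gmnc was at 0.615 ± 0.148 per 100 of Foxj1 in neoAC CellC, 0.58 ± 0.07 in AdAC CellC, 0.48 ± 0.09 in AdAC direct and 0.27 ± 0.15 in neoAC direct, so ages overlapped. Myb was at 2.38 ± 0.30, 3.16 ± 0.92 and 3.25 ± 0.41 in neoAC CellC, neoAC direct and AdAC direct, and apart from these at 0.45 ± 0.08 in AdAC CellC. Trp73 was at 1.61 ± 0.08 in neoAC CellC and 1.57 ± 0.17 in AdAC CellC, below 8.97 ± 2.72 in neoAC direct and 5.73 ± 0.17 in AdAC direct.

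**Figure D4:**
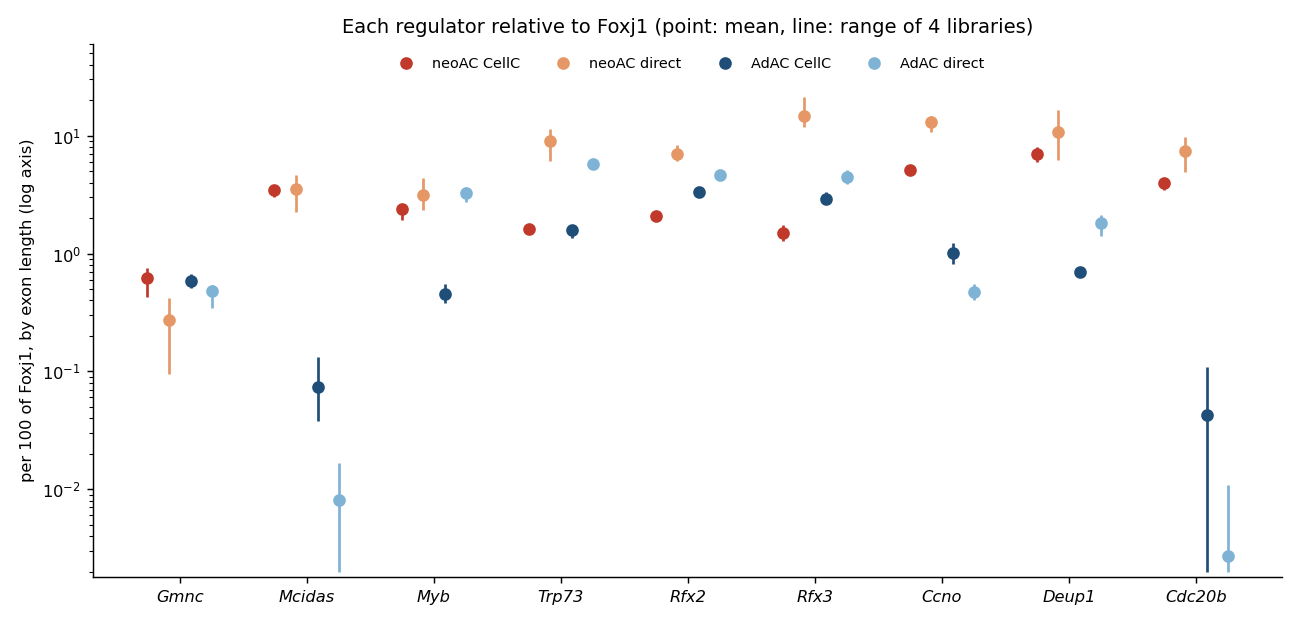
Level of 9 genes per 100 of Foxj1, each divided by exon length, in the 4 primary groups on a log axis, with the mean as a point and the range of the 4 libraries as a line. Lines that reach the foot of the plot include libraries with 0 counts. For Mcidas, Ccno, Deup1 and Cdc20b the ranges of both neonatal groups lie over those of both adult groups.

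Ccno, Mcidas and Cdc20b span 103394 bases of chromosome 13 (112987802 to 113091195 on GRCm38), in that order on the plus strand. Their neighbours had other patterns. Dhx29, which encodes an RNA helicase of translation, was between 25.4 CPM (AdAC direct) and 66.9 CPM (NSC) in the group means, and Mtrex, which encodes an RNA helicase of the nuclear exosome, between 48.8 CPM (neoAC direct) and 138 CPM (NSC). Gpx8, a glutathione peroxidase gene on the opposite strand within an intron of Cdc20b, was at 41.7 ± 9.44 CPM in NSC and 115 ± 9.14 CPM in AGES, where Cdc20b was at the floor. The granzyme genes Gzma and Gzmk, further on, were at most 0.06 CPM in each group mean.

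**Figure D5:**
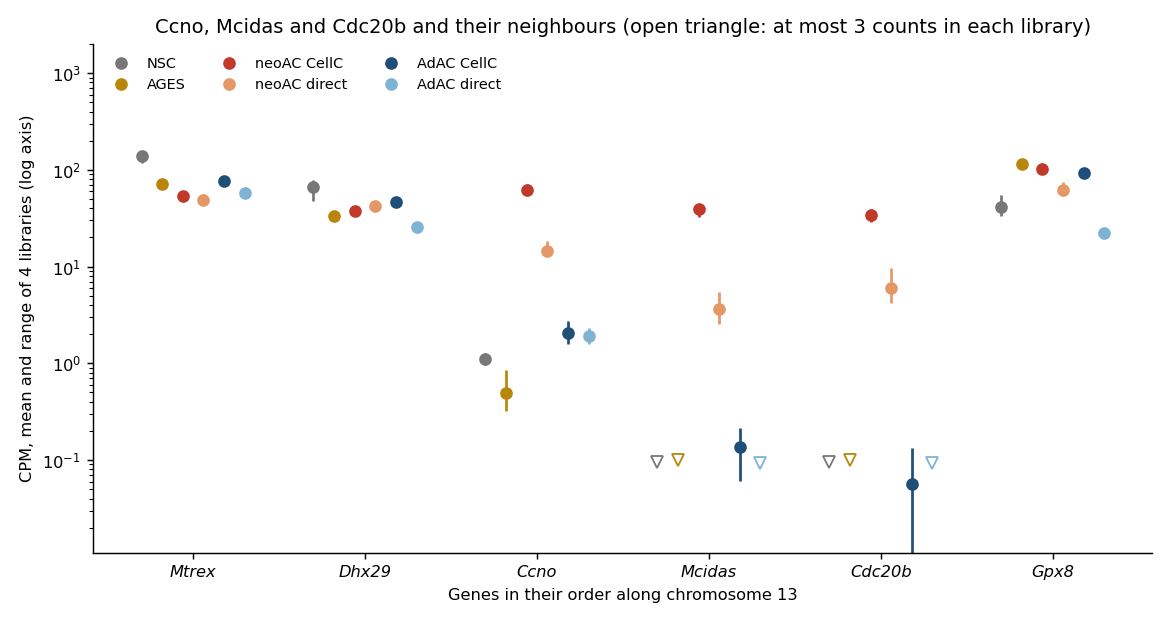
Mean level in CPM (point, log axis) and range of the 4 libraries (line) of Ccno, Mcidas and Cdc20b and of 3 neighbouring genes, by group. Open triangles mark groups with at most 3 counts in each library, drawn at that limit, and the AdAC CellC line of Cdc20b runs down to a library with 0 counts. Ccno, Mcidas and Cdc20b differ widely between groups, whereas the group means of Mtrex, Dhx29 and Gpx8 stay between 22.3 and 138 CPM.

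The genes most like 3 of the regulators were ranked by Pearson's r of log2 CPM over the 24 libraries, among 17162 genes, and libraries of a group share their source. For Mcidas they were Foxn4 (r = 0.97), Ccna1, which encodes cyclin A1, Slc17a8, a vesicular glutamate transporter gene, Oxct1, an enzyme of ketone body use, and Smim24. Ccna1 was at 42.5 ± 3.73 CPM in neoAC CellC and 4.65 ± 1.74 CPM in neoAC direct, and at most 1.56 CPM in each other group mean. For Foxj1 they were Morn5 (r = 0.99), Tcerg1l, Wdr78, Ccdc151 and Iqcg, of which Ccdc151 and Wdr78 encode factors of ciliary dynein. For Rfx3 they were 4933407L21Rik (r = 0.97), Mboat2, Cspp1, Pfkm and 4930570G19Rik, and none of these is among the motile cilium genes listed.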

How the data were processed

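The authors made stranded libraries from polyadenylated RNA, aligned paired reads to GRCm38 with STAR 2.7.3a, allowing up to 20 alignments, and assigned them to exons with featureCounts. What was deposited is one table of raw read counts per gene, not normalized. The strand setting of the counting is not given in the sources used here. Replicates were separate isolations or cultures. Tests used edgeR 4.0.16 under R 4.3.3 (filterByExpr, TMM, robust quasi-likelihood fit of the 6 groups, two-sided, Benjamini-Hochberg over 19691 genes, threshold 0.05), after a test on simulated data. An SE is the size of the log2 fold change over the square root of F. CPM were divided by merged exon length of Gencode vM21, which held 99.3% of the counted genes, to give RPKM. Alternatives included DESeq2 1.42.0, other scalings and filters, a replicate block and leaving out each library.

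The 10 genes and the gene lists were chosen with earlier results of these data known, so the lists are described by counts and medians. All 10 genes are named. The rule for other names took up to 4 genes of highest level in a list, genes on which a statement turns, genes within 100 kb of the Ccno locus and the 5 genes most like Foxj1, Mcidas or Rfx3. Foxn4, E2f4, E2f5, Gmnn, Plk4, Ccdc78 and Cfap126 were singled out from their lists after values were seen.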

Additional observations from a re-analysis of the deposited data

Results flagged for a closer look

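The change with culture, which includes the time elapsed in vitro, differed between adult and neonatal cells for 8 of the 10 genes. This was by edgeR's interaction test, where 68.6% of all tested genes were called. As adult minus neonatal log2 change the difference was −6.91 for Myb, −5.28 for Gmnc, −5.23 for Deup1, −4.43 for Foxj1, −3.88 for Trp73, −3.16 for Rfx2, −1.99 for Ccno and −1.82 for Rfx3, with edgeR adjusted p from 4.85e-17 (Myb) to 2.20e-07 (Ccno).

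In 2 of 52 sets of 4 libraries over the floor, 1 library stood apart from the other three by Dixon's criterion, which flags about 1 set in 20 by chance. Rfx2 was at 9.71 CPM in NSC replicate 1, and Ccno was at 18.4 CPM in neoAC direct replicate 1.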

How the results depend on the processing

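The counts of genes called moved by over 1.5 times under 1 setting. With at least 10 counts asked of every library, only Foxj1, Rfx2, Rfx3 and Ccno could be tested, so 3 were called in AdAC CellC against AdAC direct and in neoAC direct against AdAC direct, and 4 in neoAC CellC against neoAC direct, in AGES against AdAC CellC or neoAC CellC, in neoAC CellC against AdAC CellC and for the interaction. The counts over all genes fell with fewer genes tested, from 15366 to 9816 in adult culture, 12936 to 8554 in neonatal culture, 15002 to 9374 in AGES against AdAC CellC, 14687 to 8766 in AGES against neoAC CellC, 12561 to 8068 in neoAC CellC against AdAC CellC, 14066 to 9181 in neoAC direct against AdAC direct and 13502 to 8723 for the interaction. Leaving out 1 library gave 6 to 9 for AdAC CellC against AdAC direct (8 in all libraries), 9 to 10 for both neoAC CellC against neoAC direct and neoAC direct against AdAC direct (9), and 5, 9, 10, 10 and 8, as with all libraries, for AGES against NSC, AGES against AdAC CellC, AGES against neoAC CellC, neoAC CellC against AdAC CellC and the interaction. Differences near 0 changed sign. Ccno in adult culture ranged from −0.0591 to 0.23 with 1 library left out, and Trp73 in AGES against NSC from −0.12 to 0.44. The fitted interaction of Cdc20b ranged from −0.94 to 1.51 (0.0271 by DESeq2), but AdAC direct was at the floor, so these values give no size of a difference. Rfx2 in AGES against AdAC direct ranged from −0.051 to 0.0305 with 1 library left out and was 0.0043 without a filter and 0.0070 with only these groups, and Rfx3 in neoAC CellC against AdAC direct ranged from −0.032 to 0.10 and was −0.0175 without a filter. The cause was not tested. Scaling by library size only moved the median of all genes to 0.27 in neonatal culture, with 65.9% of calls higher in place of 52.3%, and to −0.37 in AGES against neoAC CellC, with 31.4% in place of 45.7%. With the replicate number as a block the calls were 8, 9, 5, 9, 10, 10, 9 and 8, the same counts as without it. The numbers did not pair the libraries, since in no comparison were all correlations of same-numbered libraries over 0.1 (−0.151 to 0.106).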
